A study of Homo sapiens with 3 samples.

Results

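The aryl hydrocarbon receptor pathway was described in Hep3B, an established human liver cancer line of hepatocellular origin, through 7 genes: the receptor AHR, its partner ARNT, the repressors AHRR and TIPARP, and the cytochrome P450 genes CYP1A1, CYP1A2 and CYP1B1. Each gene was found by its Ensembl identifier among the 19869 genes of the RNA sequencing table, and all 7 were matched. There were 3 libraries, 1 per group. The HKR3 library came from cells transfected with a pcDNA3.1 plasmid that encodes HKR3, an older name of the zinc finger protein ZBTB48. The library labelled siTERT came from cells given a small interfering RNA against TERT, the catalytic subunit of telomerase. The control carries the name NT-Empty and a treatment entry of Fugene, the reagent used for every transfection. The sources used here do not say whether these control cells were given a plasmid without insert, an RNA without target, both or the reagent alone, so HKR3 itself and the plasmid that carries it cannot be told apart. All cells were grown in serum-containing medium, and no receptor ligand is named in the labels. Every value is thus a single measurement, with no replicate to check it against.

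AHR is a transcription factor that sits in the cytosol with HSP90 and the co-chaperone PTGES3 until it binds a ligand, such as a dioxin, a polycyclic aromatic hydrocarbon or a tryptophan metabolite. It then enters the nucleus, pairs with ARNT and binds DNA at sites with the core GCGTG. CYP1A1, CYP1A2 and CYP1B1 are its best known targets and encode monooxygenases that oxidise foreign compounds and steroids. AHRR, which competes for ARNT, and TIPARP, an enzyme that attaches single ADP-ribose units to AHR, are also induced by the receptor and dampen it. In adult liver CYP1A2 is the abundant constitutive member of the family, while CYP1A1 is mainly inducible.

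The sequence upstream of the start is shown for the CYP1A pair, which lie in opposite orientation on chromosome 15 and differed far in level, for AHR and TIPARP, which like CYP1A1 were past 2-fold in the HKR3 library, and for the repressor AHRR. These are the 250 bases before the annotated start, 5′ to 3′ on the gene's own strand, from RefSeq on GRCh38.p14. Capitals mark the core GCGTG or its reverse complement CACGC.
CYP1A1, chr15:74725529-74725778, minus strand: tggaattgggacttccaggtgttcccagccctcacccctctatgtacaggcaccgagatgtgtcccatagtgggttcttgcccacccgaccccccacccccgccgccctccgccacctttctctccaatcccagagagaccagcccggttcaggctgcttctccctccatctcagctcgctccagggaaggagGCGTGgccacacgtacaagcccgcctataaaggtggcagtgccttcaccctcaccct
CYP1A2, chr15:74748595-74748844, plus strand: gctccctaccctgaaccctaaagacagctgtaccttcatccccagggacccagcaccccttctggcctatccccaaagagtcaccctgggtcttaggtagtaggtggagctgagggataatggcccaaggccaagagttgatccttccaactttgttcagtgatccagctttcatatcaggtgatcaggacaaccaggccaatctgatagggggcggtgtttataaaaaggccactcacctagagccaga
AHR, chr7:17298402-17298651, plus strand: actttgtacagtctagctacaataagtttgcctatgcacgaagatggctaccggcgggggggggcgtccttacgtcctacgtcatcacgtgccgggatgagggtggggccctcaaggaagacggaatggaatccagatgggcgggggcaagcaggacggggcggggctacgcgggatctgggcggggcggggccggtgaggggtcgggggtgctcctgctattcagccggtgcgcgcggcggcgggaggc
TIPARP, chr3:156674340-156674589, plus strand: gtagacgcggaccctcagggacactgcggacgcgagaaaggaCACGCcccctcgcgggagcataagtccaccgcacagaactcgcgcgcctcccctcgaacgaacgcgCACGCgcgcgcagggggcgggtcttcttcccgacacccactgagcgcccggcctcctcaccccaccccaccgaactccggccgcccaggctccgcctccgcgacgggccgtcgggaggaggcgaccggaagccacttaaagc
AHRR, chr5:321464-321713, plus strand: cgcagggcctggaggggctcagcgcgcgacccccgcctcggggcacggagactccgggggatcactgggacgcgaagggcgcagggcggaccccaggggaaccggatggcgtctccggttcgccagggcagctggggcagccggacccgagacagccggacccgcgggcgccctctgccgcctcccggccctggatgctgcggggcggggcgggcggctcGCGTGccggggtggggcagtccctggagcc

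The CYP1A1 window held 1 core, which begins 57 bases before the start, and the CYP1A2 window held 0. The AHR window held 0, with 1 core in the 50 bases after the start. The first of 3 TIPARP windows held 2 cores, 208 and 142 bases before the start, and the other windows of this gene held 0. Each of the 2 AHRR windows held a core, 1 in the window shown and 2 in the other. The core in the AHRR window shown also matched the longer form TNGCGTG, searched on both strands, which 4.52% of all windows hold. ARNT had 1 window with 0 cores, and 6 of the 7 genes had a window in the table used, CYP1B1 being the exception. The core was held on either strand by 39.1% of the windows of genes at least 2-fold higher in the HKR3 library than in the control. It was held by 44.1% of those of all genes that passed the filter on low values given below, and by 32.2% of all 35116 windows of this length. The AP-1 motif TGANTCA, searched the same way, had 0 matches in the 9 windows of these 6 genes, against 6.57% of all windows. Its share was 4.09% for genes that passed the filter and 6.16% for genes at least 2-fold higher in the HKR3 library. At these shares 0 of 9 does not set these windows apart. A match of these letters is a description of the window and not a measured binding site.

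Expression is given as FPKM, fragments scaled by transcript length and library size, as deposited. Differences are of log2(FPKM + 1), so that those of weakly expressed genes are understated, and a size rule of 2-fold on this scale takes the place of a test. The rule was applied to the 10974 genes whose mean over the 3 libraries reached 1 FPKM. Of the 7 genes, 5 passed this filter. AHRR passed just above it at a mean of 1.08 FPKM, through the library labelled siTERT, and CYP1B1 was just under it at a mean of 0.885 FPKM. CYP1A2 had a mean of 0.0101 FPKM.

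The labels were first set against the targeted genes. ZBTB48 was at 2842 FPKM in the HKR3 library, 4.89 FPKM in the library labelled siTERT and 4.91 FPKM in the control. TERT was at 5.37 FPKM in the library labelled siTERT and 4.69 FPKM in the control, so TERT was not lower where its label says it was targeted. Directions in that library are therefore those of a library with this label, with no loss of TERT measured. All 9 hepatocyte and hepatoma markers were detected, the lowest at 55.4 FPKM, and their summed level was 7969 FPKM in the HKR3 library, 11128 FPKM in the library labelled siTERT and 11227 FPKM in the control. AFP and ALB made up most of that sum, and FGB, a fibrinogen chain, went the other way, at 353 FPKM in the HKR3 library, 254 FPKM in the library labelled siTERT and 234 FPKM in the control. The leukocyte marker PTPRC and the endothelial markers VWF and CDH5 were listed at 0 in every library, and the stromal markers reached at most 0.0457 FPKM. The leukocyte list held 3 detected genes of 4, LYZ, CD68 and CD14, with a sum of 242.8 FPKM in the HKR3 library, 440.9 FPKM in the library labelled siTERT and 431.4 FPKM in the control. All libraries came from Hep3B cells, so the leukocyte list is named for its genes and its sum is not read as a share of leukocytes. The part of the lower sums of the hepatocyte and leukocyte lists of the HKR3 library in the results below was not tested. In bulk RNA of a cell line, a lower level in all cells and in some of them cannot be told apart.

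In the HKR3 library CYP1A1, TIPARP and AHR were each more than 3-fold above the control in FPKM, while ARNT was 1.52-fold above it and AHRR, CYP1B1 and CYP1A2 stayed near or below 1 FPKM in that comparison. On the log2 scale 3 of the 5 genes that passed the filter were at least 2-fold higher and 0 were lower, beside 5.52% and 2.52% of all genes in the same directions. The 7 genes were chosen by name with these differences from the control known, so the count is a description and nothing is read from it. The median difference of the 7 was 0.54, beside -0.02 for all genes that passed the filter.

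**Figure D1:**
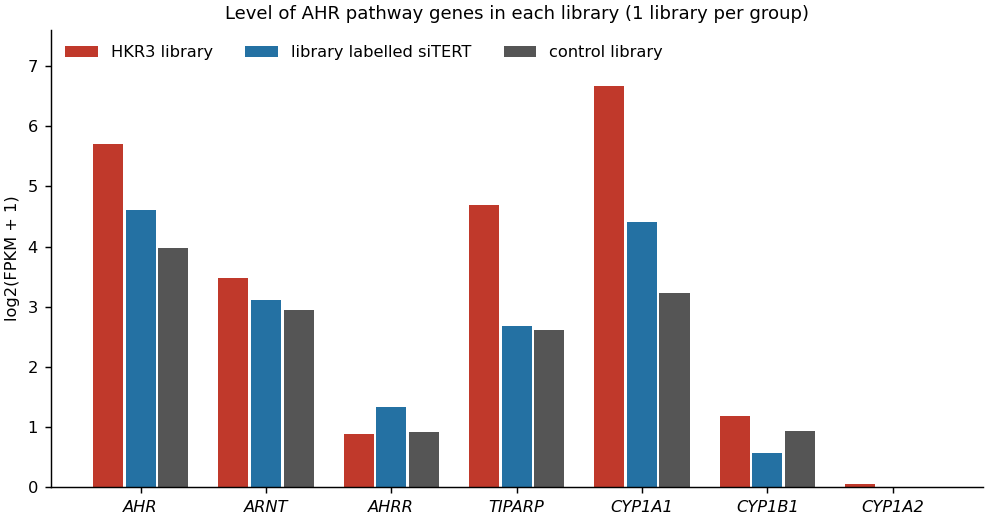
Level of the 7 genes as log2(FPKM + 1), 1 bar per library, for the HKR3 library, the library labelled siTERT and the control. CYP1A1 had the highest bar of the HKR3 library, at 101 FPKM, while AHRR and CYP1B1 stayed at or below 1.51 FPKM in every library and CYP1A2 was near or at 0.

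AHR, the receptor, was at 51.4 FPKM in the HKR3 library, 23.5 FPKM in the library labelled siTERT and 14.8 FPKM in the control. The HKR3 library was the highest and the control the lowest. The log2 difference was 1.73 in the HKR3 library, a 3.48-fold ratio of FPKM that placed AHR at rank 129 of 10974 genes from the top. In the library labelled siTERT it was 0.64, a ratio of 1.59 and rank 143, under the 2-fold rule but above 98.7% of genes. Of the AHR transcript sequence, counted in units of 31 bases, 29.02% also lies in the overlapping gene ENSG00000283321. That gene was listed at 7.23e-06 FPKM or less in every library, so the sum of both gave the same differences as AHR alone.

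ARNT, the partner that AHR needs to bind DNA and that hypoxia-inducible factors share, differed less. It was at 10.2 FPKM in the HKR3 library, 7.66 FPKM in the library labelled siTERT and 6.68 FPKM in the control, with log2 differences of 0.54 and 0.17 in the HKR3 library and the library labelled siTERT. By value the libraries stood in the same order for ARNT as for AHR, with smaller steps. The ARNT step from the control to the library labelled siTERT lies within counting error, with limits of 0.934 to 1.42 given below. Within a library the ratio of AHR to ARNT, which does not depend on how libraries were scaled to each other, was 5.05 in the HKR3 library, 3.07 in the library labelled siTERT and 2.21 in the control.

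CYP1A1 was at 101 FPKM in the HKR3 library, 20.3 FPKM in the library labelled siTERT and 8.41 FPKM in the control. The HKR3 library was the highest by far and the control the lowest. Relative to the control its ratio was 12.02 in the HKR3 library (log2 difference 3.44, rank 10 of 10974 genes) and 2.42 in the library labelled siTERT (log2 difference 1.18, rank 16). CYP1A1 was the 1 gene of the 5 at least 2-fold higher in the library labelled siTERT, where 0.282% of all genes were, with 0 of the 5 at least 2-fold lower, beside 0.2% of all genes. It was no longer past 2-fold with a pseudocount of 5 FPKM, at 0.92. The members were chosen with this difference known too.

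The level of CYP1A1 was also set against other genes of the same library. The ratio of CYP1A1 to AHR was 1.97 in the HKR3 library, 0.865 in the library labelled siTERT and 0.570 in the control. Set against POR, the reductase that passes electrons to microsomal P450 enzymes, CYP1A1 was at a ratio of 1.99 in the HKR3 library, 0.337 in the library labelled siTERT and 0.141 in the control. These ratios of levels per length show unequal change of the genes within each library and do not depend on the scaling between libraries.

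The other CYP1 genes were weakly expressed or not detected. CYP1A2 was at 0.0302 FPKM in the HKR3 library, close to the worth of 1 fragment, and was listed at 0 in the library labelled siTERT and the control. CYP1B1, which is mostly found outside the liver and acts on oestrogens, was at 1.26 FPKM in the HKR3 library, 0.480 FPKM in the library labelled siTERT and 0.914 FPKM in the control. By value its order differed from that of CYP1A1, since the library labelled siTERT was the lowest. By the estimate given below CYP1B1 rested on 8.07 fragments there and 13.8 in the control. The order of these libraries is therefore uncertain. CYP1A1 made up 98.7% of the summed CYP1 level in the HKR3 library, 97.7% in the library labelled siTERT and 90.2% in the control. CYP1A1 and CYP1A2 are paralogs, but 0.780% of the CYP1A1 units of 31 bases occur in CYP1A2, so few reads could be split between the pair.

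Of the feedback genes, TIPARP was at 24.8 FPKM in the HKR3 library, 5.42 FPKM in the library labelled siTERT and 5.10 FPKM in the control. The library labelled siTERT and the control lay close together, and the HKR3 library stood apart from both. The ratio to the control was 4.86 in the HKR3 library (log2 difference 2.08, rank 77) and 1.06 in the library labelled siTERT (log2 difference 0.07). AHRR was at 0.848 FPKM in the HKR3 library, 1.51 FPKM in the library labelled siTERT and 0.885 FPKM in the control. It was the member that did not stand above the control in the HKR3 library, where its log2 difference was -0.03, against 0.41 in the library labelled siTERT. The AHRR difference in the HKR3 library changed sign, to 0.04, when the libraries were scaled to the same FPKM sum. The ratio of AHR to AHRR was 60.5 in the HKR3 library, 15.6 in the library labelled siTERT and 16.7 in the control. By the estimate given below AHRR rested on 4.41, 7.93 and 4.16 fragments in the same order, so this ratio is uncertain.

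**Figure D2:**
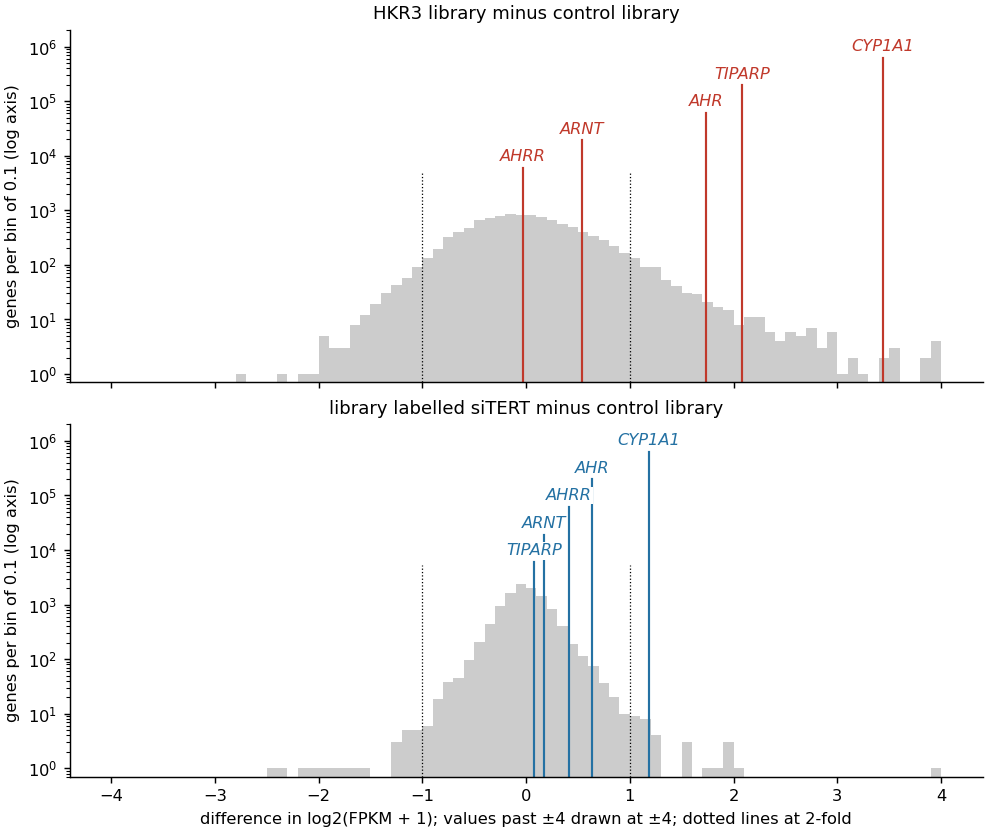
Differences of log2(FPKM + 1) from the control over the 10974 genes whose mean reached 1 FPKM (grey, log count axis), with the 5 AHR pathway genes that passed the filter as lines whose heights only separate the names. CYP1A1, TIPARP and AHR lie past 2-fold (dotted) in the HKR3 library, at 3.44, 2.08 and 1.73, and CYP1A1 at 1.18 in the library labelled siTERT.

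The number of fragments behind these values was estimated, since the table holds no counts. The worth of 1 fragment in weakly expressed genes gave 1.13e+07 fragments for the HKR3 library, 1.14e+07 for the library labelled siTERT and 1.02e+07 for the control. With the shortest coding transcript of each gene, which gives the widest limits, CYP1A1 rested on an estimated 1125 fragments in the HKR3 library, 228 in the library labelled siTERT and 84.6 in the control. Exact binomial limits at 95%, which cover counting error only, ran from 9.60 to 15.1 for the CYP1A1 ratio of the HKR3 library to the control. For the library labelled siTERT over the control they ran from 1.86 to 3.12. Limits for AHR were 3.24 to 3.74 in the HKR3 library, with 1.47 to 1.73 in the library labelled siTERT, and for TIPARP 3.95 to 5.98 and 0.821 to 1.38. For ARNT they were 1.252 to 1.86 and 0.934 to 1.42, so a difference of ARNT between the control and the siTERT-labelled library was not detectable at this depth. AHRR, with limits of 0.168 to 4.86 in the HKR3 library, with 0.480 to 8.13 in the library labelled siTERT, and CYP1B1, with 0.658 to 2.88 and 0.186 to 1.31, also had limits that span 1 in both comparisons. These limits hold no variation between cultures.

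**Figure D3:**
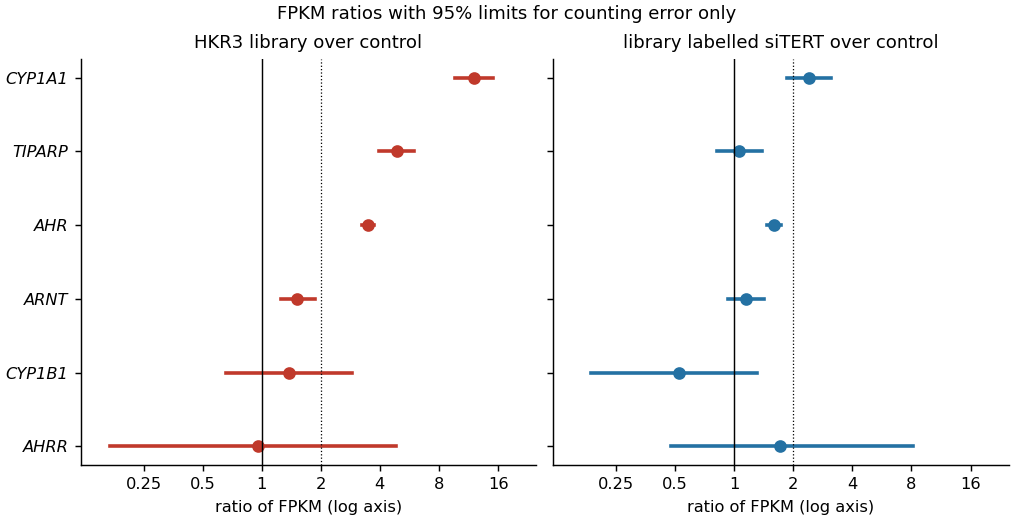
Ratio of FPKM to the control (log axis) for 6 genes in the HKR3 and siTERT-labelled libraries, with exact 95% limits for counting error on estimated fragments. Limits lie above 2-fold (dotted) for CYP1A1, TIPARP and AHR in the HKR3 library, and those of AHRR and CYP1B1 span 1 in both panels; CYP1A2 is left out because it was listed at 0 in the control.

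The HKR3 library was also set directly against the library labelled siTERT, which avoids the shared control. Of the 5 genes, 3 were at least 2-fold higher, beside 4.11% of all genes, and 0 were at least 2-fold lower, beside 1.38%, again with the differences known when the genes were chosen. Log2 differences were 2.26 for CYP1A1, 2.01 for TIPARP and 1.10 for AHR, and AHR was just under 2-fold, at 0.98, with a pseudocount of 5 FPKM. ARNT differed by 0.37 and AHRR by -0.44. For CYP1B1 the difference was 0.61, with a ratio of 2.63 and limits from 1.13 to 6.92. Both comparisons with the control rest on the same control library, so their likeness is not read as a result.

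By the distance between pairs of log2 differences from the control, a measure that covers 3 libraries, the 5 genes nearest to CYP1A1 were RASD1, ANKRD1, CXCL2, ATF3 and DUSP8, at distances from 0.38 to 0.55. Of these, ATF3, a stress-induced transcription factor, was at 38.4 FPKM in the HKR3 library, 4.17 FPKM in the library labelled siTERT and 2.25 FPKM in the control. The genes nearest to TIPARP were MAFG, PLA2G4C, MBNL2, ATOSA and ZBTB21, at 0.09 to 0.12. MAFG, a small MAF protein that pairs with NRF2, was at 28.9 FPKM in the HKR3 library, 6.99 FPKM in the library labelled siTERT and 6.48 FPKM in the control. Nearest to AHR were RAB30, ETS2, SHC2, FILIP1L and GATA2, at 0.04 to 0.11. The nearest gene to CYP1A1 lay farther from it than all 5 neighbours of AHR and of TIPARP lay from theirs. At ranks 10 and 16 in the 2 differences, CYP1A1 lies where few genes are, so this is not read as a trait of CYP1A1.

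Lists of related genes were read against all genes that passed the filter, of which 5.52% lay past 2-fold above the control and 2.52% past 2-fold below it in the HKR3 library, and 0.282% and 0.2% in the library labelled siTERT. Scaled to the same FPKM sum, the HKR3 library had 845 genes above and 164 below, where the deposited values gave 606 and 277. At these shares a count of 0 in a short list, above all in the library labelled siTERT, does not set it apart from other genes. The partners that hold the receptor in the cytosol were abundant and differed little. Of 3 chaperone genes, HSP90AA1, HSP90AB1 and PTGES3, 0 were past 2-fold in either comparison with the control, and the median difference was -0.04 in the HKR3 library, which turned to 0.12 when every library was scaled to the same FPKM sum, and -0.13 in the library labelled siTERT. HSP90AB1, the constitutive HSP90 gene, was at 686 FPKM in the HKR3 library, 568 FPKM in the library labelled siTERT and 622 FPKM in the control. Genes of receptor turnover, among them the ubiquitin ligase parts CUL4B and DDB1 and the ligase STUB1, had 0 of 5 past 2-fold, and medians of -0.21 and 0.05. Other bHLH-PAS genes had 0 of 7 past 2-fold, and medians of 0.30 and 0.19. ARNT2, the closest relative of ARNT, was listed at 0 in every library. HIF1A and EPAS1, which also pair with ARNT, had log2 differences of 0.33 and 0.38 in the HKR3 library.

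Among 10 coregulators, EP300 was the 1 gene at least 2-fold higher in the HKR3 library, and the list had a median of 0.43. EP300, a histone acetyltransferase and coactivator, was at 30.5 FPKM in the HKR3 library, 14.7 FPKM in the library labelled siTERT and 13.0 FPKM in the control. Its relative CREBBP differed from the control by 0.92 (log2) in the HKR3 library and by 0.17 in the library labelled siTERT. The FPKM ratio of CREBBP in the HKR3 library was 2.03, so its place under 2-fold rests on the pseudocount. In the library labelled siTERT 0 of 10 coregulators were past 2-fold, with a median of 0.15. Scaling to the same FPKM sum shifted the all-gene median by 0.14 in the HKR3 library and by 0.04 in the library labelled siTERT, and among the list medians of the HKR3 library it turned the sign of that of the chaperones alone.

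**Figure D4:**
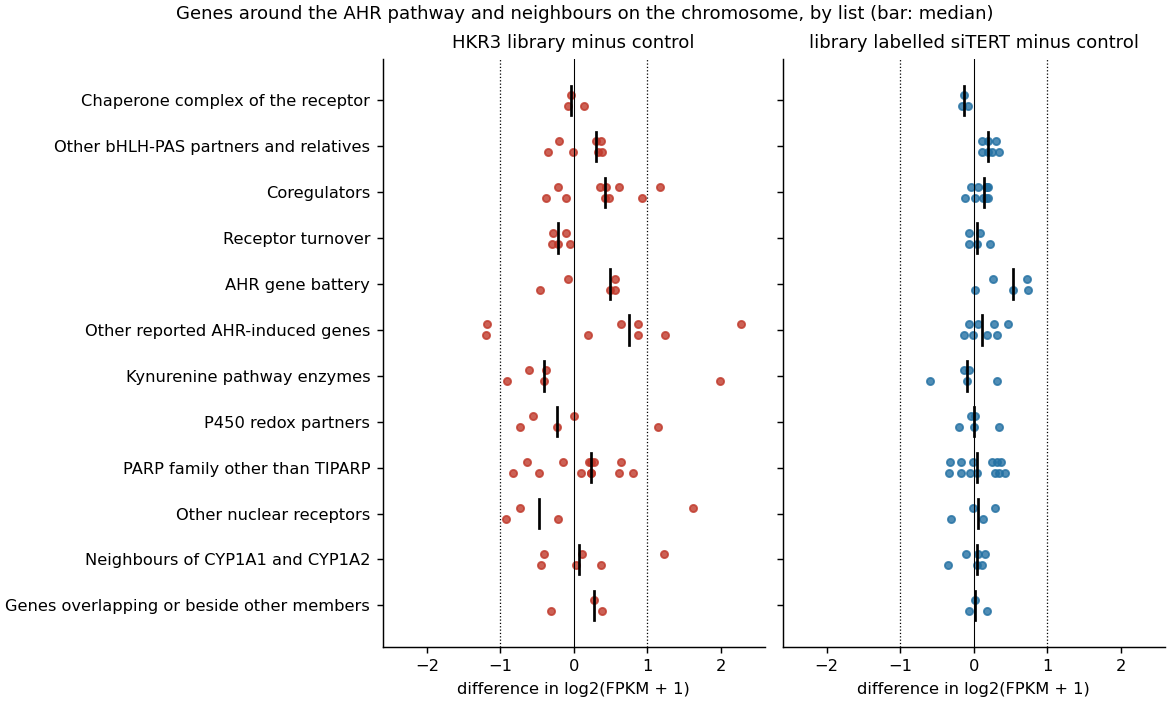
Differences of log2(FPKM + 1) from the control for genes around the pathway and chromosomal neighbours of its members, by list, 1 point per gene whose mean reached 1 FPKM, with the median of each list as a bar and dotted lines at 2-fold. In the HKR3 library 7 points lie at least 2-fold above the control and 2 below it, and in the library labelled siTERT 0 lie past 2-fold.

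Of the classical AHR gene battery 5 of 6 genes passed the filter, and 0 were past 2-fold on the log2 scale in either comparison. For the HKR3 library the median was 0.50, the value of UGT1A1, at rank 2036 of 10974 genes from the top. For the siTERT-labelled library it was 0.54, the value of GSTA2, at rank 236, so the like medians hold unlike places among all genes. NQO1, a quinone reductase that NRF2 also controls, was at 503 FPKM in the HKR3 library, 701 FPKM in the library labelled siTERT and 695 FPKM in the control. ALDH3A1, an aldehyde dehydrogenase, was below 0.7 FPKM in every library. UGT1A1 and UGT1A6, glucuronidating enzymes, had log2 differences of 0.50 and 0.56 in the HKR3 library, and 0.73 each in the library labelled siTERT. As ratios of FPKM to the control, UGT1A6 was at 2.14 in the HKR3 library and 2.59 in the siTERT-labelled library. Its control level was 0.711 FPKM, and its place under 2-fold rests on the pseudocount. In the siTERT-labelled library UGT1A1 and UGT1A6 held ranks 80 and 82 from the top. Their last exons are shared within the UGT1A locus, and 51.3% of the UGT1A1 sequence units also lie in other genes, so the split is uncertain. The sum over 7 UGT1A genes was 6.71 FPKM in the HKR3 library, 7.500 FPKM in the library labelled siTERT and 3.79 FPKM in the control. GSTA1 and GSTA2, glutathione transferases that also share sequence, summed to 176.2 FPKM, 221.0 FPKM and 182.4 FPKM in the same order.

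Of 15 further genes reported elsewhere as induced by AHR, 8 passed the filter, and in the HKR3 library 2 of them lay past 2-fold above the control and 2 past 2-fold below it, against 0 in the library labelled siTERT, beside 5.52% and 2.52% of all genes in the HKR3 library and 0.282% and 0.2% in the library labelled siTERT. The list medians were 0.76 in the HKR3 library, with 0.12 in the library labelled siTERT. HES1, a transcriptional repressor best known as a Notch target, was at 67.5 FPKM in the HKR3 library, 16.2 FPKM in the library labelled siTERT and 13.2 FPKM in the control. CDKN1B, the kinase inhibitor p27, was at 66.3 FPKM in the HKR3 library, 27.1 FPKM in the library labelled siTERT and 27.4 FPKM in the control. On the lower side were SLC7A5, an amino acid transporter, with a log2 difference of -1.19, and STC2, a secreted glycoprotein, with -1.18. NFE2L2, which encodes NRF2, was at 249 FPKM in the HKR3 library, 187 FPKM in the library labelled siTERT and 135 FPKM in the control. IL6, an inflammatory cytokine, and EREG, a ligand of the EGF receptor, were listed at 0 in the control and in the library labelled siTERT and were at 0.953 and 0.462 FPKM in the HKR3 library. FGF21, a liver hormone, went the other way, listed at 0 in the HKR3 library and at 0.232 FPKM in the library labelled siTERT and 0.259 FPKM in the control. XDH, xanthine dehydrogenase, was at 0.394 FPKM in the HKR3 library, 0.462 FPKM in the library labelled siTERT and 0.0545 FPKM in the control. SERPINB2, IDO1 and LRAT, the other genes under the filter, were listed at 0 in every library.

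The kynurenine pathway breaks down tryptophan and yields natural AHR ligands. The list held 10 enzymes, among them IL4I1, which acts on tryptophan outside this pathway and was under the filter. Of the 10, 5 passed the filter. They were AFMID, which forms kynurenine, and KYNU, AADAT, HAAO and QPRT, which act on kynurenine or further down. In the HKR3 library 1 of these 5 was at least 2-fold higher and the other 4 had differences below 0, with a median of -0.41. The higher one was KYNU, kynureninase, which consumes kynurenine, at 35.6 FPKM in the HKR3 library, 10.4 FPKM in the library labelled siTERT and 8.17 FPKM in the control. The entry enzymes were under the filter, with IDO1 and IDO2 listed at 0 in every library and TDO2 at 0.392 FPKM in the HKR3 library, 0.521 FPKM in the library labelled siTERT and 0.204 FPKM in the control. AADAT, an aminotransferase, had a log2 difference of -0.91 in the HKR3 library. Its FPKM ratio to the control was 0.382, so it lay past 2-fold lower without the pseudocount. In the library labelled siTERT the list had 0 of 5 past 2-fold and a median of -0.10.

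Genes that serve P450 enzymes went different ways in the HKR3 library. ALAS1, the rate-limiting enzyme of haem synthesis in liver, was at 74.0 FPKM in the HKR3 library, 42.0 FPKM in the library labelled siTERT and 32.9 FPKM in the control, and was the 1 gene of 5 past 2-fold. The electron donors CYB5A and CYB5R3 had log2 differences of -0.73 and -0.56, and the list had a median of -0.23. Of 6 nuclear receptors 4 passed the filter. They were the glucocorticoid receptor NR3C1, the retinoid X receptor RXRA, the fatty acid receptor PPARA and the bile acid receptor NR1H4. NR3C1 alone of these 4 was at least 2-fold higher in the HKR3 library, at 10.9 FPKM, against 3.73 FPKM in the library labelled siTERT and 2.85 FPKM in the control. RXRA, PPARA and NR1H4 had log2 differences of -0.74, -0.93 and -0.22 in the HKR3 library. For PPARA the FPKM ratio to the control was 0.440, so it lay past 2-fold lower without the pseudocount. The xenobiotic receptors proper were under the filter. NR1I3, the constitutive androstane receptor, was listed at 0 in every library, and the pregnane X receptor NR1I2 was at 0.445 FPKM in the HKR3 library, 1.28 FPKM in the library labelled siTERT and 0.649 FPKM in the control.

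The PARP enzymes other than TIPARP had 0 of 13 past 2-fold in either comparison with the control, with medians of 0.23 in the HKR3 library, with 0.04 in the library labelled siTERT. The largest differences in the HKR3 library were those of PARP1, at -0.83, and PARP8, at 0.80, against 2.08 for TIPARP. The FPKM ratio of PARP8 was 2.02, so its place under 2-fold rests on the pseudocount. On chromosome 15, 1 of the 6 neighbours of the CYP1A pair that passed the filter was at least 2-fold higher in the HKR3 library. This was CLK3, a kinase of splicing factors, at 38.1 FPKM in the HKR3 library, 17.5 FPKM in the library labelled siTERT and 15.6 FPKM in the control. The neighbours CSK, SCAMP2, ARID3B, EDC3 and ULK3 had log2 differences of -0.44, -0.41, 0.37, 0.11 and 0.04 in the HKR3 library. CYP1A1 had 3.44 there. Of 3 genes beside or overlapping the other members, PDCD6, EXOC3 and SSR3, 0 were past 2-fold, with differences from -0.30 to 0.38 in the HKR3 library.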

How the data were processed

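RNA sequencing was deposited for 3 libraries of Hep3B cells, 1 each for the HKR3 plasmid, the small interfering RNA against TERT and the control, grouped by titles and treatment labels. The authors deposited FPKM per gene and library. The submitters' processing notes name hg19 as the build and, as tools, Cufflinks, Cuffdiff 2.2.1 and STAR 2.5.0. The sources used here give neither their settings nor the use of strand, nor any scaling of FPKM between libraries. If strand was not used, reads of a gene and its antisense partner cannot be told apart. Symbols were matched for 19119 of 19869 identifiers. Differences of log2(FPKM + 1) were calculated with numpy 2.4.6 and pandas 2.3.3, with a size rule of 2-fold and no test, since each group held 1 library. The calculation was tested on simulated data.

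Named were the 7 genes, ZBTB48, TERT, genes of 12 role lists past 2-fold, up to 3 others per list with the largest difference, and the 5 genes nearest to each member past 2-fold. List genes named beyond these, such as ARNT2, HIF1A, ALDH3A1, IDO1, IL6, EREG, FGF21 and XDH, were chosen after their values were seen. The 7 members and the lists were chosen with earlier results of these data known. A further gene of the lists is not reported here. Library sizes were estimated from single-transcript genes of at least 1000 bases in GENCODE release 29, as the value with most genes within 25%. They rest on 67, 74 and 69 genes in the HKR3 library, the library labelled siTERT and the control, and are scaled sizes if FPKM was scaled between libraries. Limits used scipy 1.17.1. Upstream sequences are from RefSeq on GRCh38.p14, another build than that of the files, and were matched by symbol. Alternatives were other pseudocounts, filters and scalings.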

Additional observations from a re-analysis of the deposited data

How the results depend on the processing

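Differences of the 5 genes that passed the filter were recomputed with another pseudocount or scaling, 60 in all. Of these, 0 past 2-fold changed sign, 53 moved by less than their counting limits and 7 by more. CYP1A2 and CYP1B1, under the filter, were left out of this check. The filters change which genes are kept and not a gene's own difference. In the HKR3 library against the control, log2 differences ran from 2.98 to 3.59 for CYP1A1, from 1.56 to 2.26 for TIPARP and from 1.51 to 1.88 for AHR, and all 3 stayed past 2-fold under the 4 pseudocounts and scalings tried. In the library labelled siTERT against the control CYP1A1 ran from 0.92 to 1.26, and with a pseudocount of 5 FPKM 0 of these 5 genes were past 2-fold. Counts over all genes moved more. With a pseudocount of 0.1 FPKM, 488 genes were lower in the HKR3 library than in the control (277 as reported), 103 higher and 57 lower genes were counted in the library labelled siTERT (31 and 22), and 323 were lower in the HKR3 library than in the library labelled siTERT (151). With a pseudocount of 5 FPKM the HKR3 library had 238 higher and 93 lower genes than the control (606 and 277), the library labelled siTERT 10 and 3, and the HKR3 library 169 and 34 against the library labelled siTERT (451 and 151). Without a filter 37 genes were lower in the library labelled siTERT, and with a mean of at least 5 FPKM 17 lay above and 5 below the control there. Scaling to the same FPKM sum gave 845 genes higher and 164 lower in the HKR3 library than in the control, and 589 higher and 98 lower than in the library labelled siTERT. By arithmetic, a larger pseudocount shrinks every log2 difference and a smaller one widens it, and the filter sets how many genes are kept. Scaling to the same FPKM sum raised the all-gene median of the HKR3 library against the control by 0.14. Why the FPKM sums differ was not tested. Depth limits AHRR, CYP1B1 and CYP1A2, each of which rested on few fragments. No paired analysis was possible because each group holds 1 library.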
